A study of Homo sapiens with 2 samples.

Results

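The 10 genes described here encode the enzymes that set how much glucose carbon passes through glycolysis and whether the resulting pyruvate enters the mitochondrion or leaves the cell as lactate. They are the 4 PFKFB genes, the 4 PDK genes, LDHA and LDHB, listed by gene symbol. The list was chosen with earlier results of these data known. Each was read by 1 transcript cluster, the array's unit for 1 transcribed locus, that the annotation gives a single symbol, so all 10 were found among the 22411 named genes. The cells were 769-P, an established human line from a non-metastatic clear-cell renal cell carcinoma, a kidney cancer. 1 array held total RNA of cells that had received the EGFP lentiviral vector alone (empty vector), and 1 array that of cells given the same vector carrying the full coding sequence of FOXK2, a forkhead transcription factor. EGFP and the lentiviral backbone were thus common to both groups. Whether the cells were a pool or 1 clone, and how long after infection they were collected, is not given in the sources used here. With 1 array per group there is no replicate error and no test. Every difference below is a single measurement, the log2 value with FOXK2 minus the log2 value with empty vector, and it compares these 2 arrays. In bulk RNA, fewer cells that express a gene and less of its RNA per cell cannot be told apart.

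The PFKFB enzymes make and break fructose bisphosphate of the regulatory kind, the strongest activator of phosphofructokinase, so their balance of kinase and phosphatase activity sets the pace of glycolysis. The PDK enzymes phosphorylate the pyruvate dehydrogenase complex and switch it off, which keeps pyruvate out of the citric acid cycle. Lactate dehydrogenase is a tetramer of A and B subunits, of which A favours the reduction of pyruvate to lactate and B the reverse reaction. In clear-cell carcinoma these genes are studied because loss of the VHL tumour suppressor keeps hypoxia-inducible factors active, and several members are known targets of those factors. In mouse cells and tissues, FOXK1 and FOXK2 have been described as inducers of glycolytic enzymes and of PDK genes.

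4 members stood out by the size of their difference, and the DNA just before their annotated starts is shown so that the promoters can be compared. The 6 windows are 250 bases each, from RefSeq on GRCh38.p14, written 5′ to 3′ in the direction of the gene, and LDHA and PFKFB3 have 2 annotated starts each. Capitals mark matches on either strand to ACGTG or GCGTG, the core of the hypoxia response element, or to CACGTG, an E-box that contains ACGTG on both strands. The forkhead motif GTAAACA would be in capitals too.
PDK3 (chrX:24465036-24465285, plus strand): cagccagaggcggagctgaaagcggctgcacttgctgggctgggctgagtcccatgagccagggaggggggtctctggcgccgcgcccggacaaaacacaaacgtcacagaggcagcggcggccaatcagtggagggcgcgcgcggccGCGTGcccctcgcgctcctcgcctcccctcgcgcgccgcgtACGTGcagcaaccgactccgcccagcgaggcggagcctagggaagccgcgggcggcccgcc
PDK4 (chr7:95596517-95596766, minus strand): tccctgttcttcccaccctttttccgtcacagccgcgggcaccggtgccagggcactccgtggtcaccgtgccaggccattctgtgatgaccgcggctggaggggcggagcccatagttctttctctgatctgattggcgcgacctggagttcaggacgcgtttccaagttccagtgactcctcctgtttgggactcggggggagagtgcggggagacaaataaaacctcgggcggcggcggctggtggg
LDHA, outer start (chr11:18394313-18394562, plus strand): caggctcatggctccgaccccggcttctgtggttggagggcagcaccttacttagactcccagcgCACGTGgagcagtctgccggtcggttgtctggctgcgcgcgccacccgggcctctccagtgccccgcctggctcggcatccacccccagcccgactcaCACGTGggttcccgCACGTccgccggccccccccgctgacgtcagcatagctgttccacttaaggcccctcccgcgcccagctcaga
LDHA, inner start (chr11:18396101-18396350, plus strand): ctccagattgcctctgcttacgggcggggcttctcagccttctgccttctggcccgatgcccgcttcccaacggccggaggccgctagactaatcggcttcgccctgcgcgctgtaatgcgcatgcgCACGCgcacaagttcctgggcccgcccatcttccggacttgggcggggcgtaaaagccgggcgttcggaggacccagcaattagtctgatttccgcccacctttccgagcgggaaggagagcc
PFKFB3, outer start (chr10:6144671-6144920, plus strand): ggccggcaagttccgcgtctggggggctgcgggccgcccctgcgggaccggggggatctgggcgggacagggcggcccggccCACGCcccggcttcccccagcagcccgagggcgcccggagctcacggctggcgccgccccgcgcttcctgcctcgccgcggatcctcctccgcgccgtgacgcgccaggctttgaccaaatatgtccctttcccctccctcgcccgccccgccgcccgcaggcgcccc
PFKFB3, inner start (chr10:6202682-6202931, plus strand): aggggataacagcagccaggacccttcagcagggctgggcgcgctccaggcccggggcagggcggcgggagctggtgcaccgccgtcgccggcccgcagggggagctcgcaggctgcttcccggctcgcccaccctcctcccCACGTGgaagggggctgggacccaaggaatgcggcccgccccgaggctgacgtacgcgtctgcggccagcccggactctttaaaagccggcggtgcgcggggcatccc

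The forkhead letters GTAAACA were in none of the 15 windows of 9 members (PFKFB1, PFKFB3, PFKFB4, the 4 PDK genes, LDHA and LDHB), against 2.98% of the 35116 windows of all genes. ACGTG was in 5 of the 15 windows, against 18.5% of all, and GCGTG was in 5 of 15, against 32.2%. CACGTG was in 3 of 15, one each of LDHA, PDK2 and PFKFB3, against 6.34% of all. The outer LDHA window held ACGTG 5 times, of which 4 were the paired matches of its 2 E-boxes. The PDK3 window held ACGTG once and GCGTG once, starting 61 and 102 bases before the gene's start, and the PDK4 window held no searched motif. PFKFB3, which was lower with FOXK2, carried an E-box before its inner start, as did LDHA, which was higher, before its outer one. These are matches of letters in a short window, and binding was not measured.

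FOXK2 itself had a value of 9.36 with empty vector and 13.82 with FOXK2, a difference of 4.46, so the labels were borne out by the targeted gene. Of the markers of kidney epithelium, 10 of 11 measured lay above the level limit, a mean over both arrays of 5.24, which is the median of all transcript clusters with 1 symbol. The kidney transcription factor PAX8 stood at 10.96 with empty vector and 10.80 with FOXK2. CUBN and LRP2, endocytic receptors of the proximal tubule, were the 2 at least 2-fold higher with FOXK2, against 2.13% of all genes above the limit. Most kidney epithelial markers went the other way: 3 had a positive and 7 a negative difference, with a median of -0.14. Leukocyte markers were above the limit in 1 of 7 cases, the lysosomal gene CD68, with 12.83 and 13.77, while PTPRC, which defines leukocytes, had 3.68 and 3.65. Endothelial (5), fibroblast and mural (4) and red cell (1) markers were above it in no case. Above this limit lay 11263 genes, and 95% of them differed by between -1.09 and 0.93, with a median of -0.050.

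Of the 10 members, 7 lay above the level limit. Among those 7, PDK3 was at least 2-fold higher with FOXK2 and PFKFB3 at least 2-fold lower, the only members of the 10 past that fold in the values as deposited. Over all genes above the limit, 2.13% were at least 2-fold higher and 3.05% at least 2-fold lower, or 240 and 344 genes; that split became 273 and 238 with each gene set against the running median of its neighbours. At 1.5-fold, LDHA and PDK4 joined PDK3, giving 3 members higher, against 6.09% of all genes above the limit, while PFKFB3 remained the 1 lower member, against 10.6%. 7 members had a positive and 3 a negative difference, and 52.7% of all measured genes had a positive one. The median over the 10 members was 0.087, beside 0.020 over all measured genes.

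**Figure D1:**
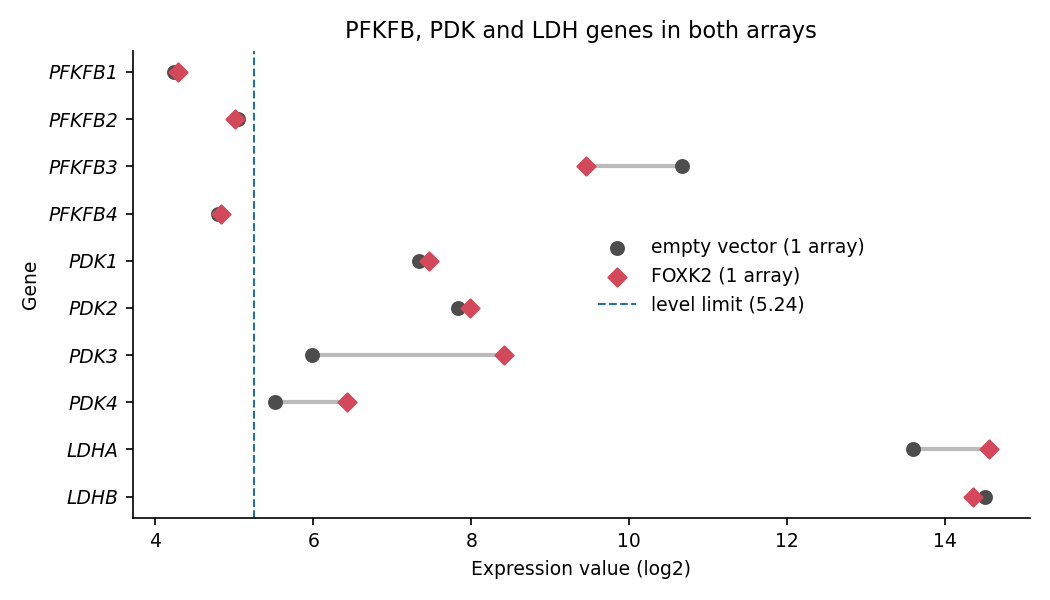
Expression values (log2, horizontal axis) of the 10 genes in the empty vector array (grey circles) and the FOXK2 array (red diamonds), 1 array each, with no error bars because there are no replicates. PDK3 moves furthest, from 5.98 to 8.42, and PFKFB3 is the only one of the 10 at least 2-fold lower with FOXK2. PFKFB1, PFKFB2 and PFKFB4 lie below the level limit of 5.24 in both arrays (dashed line).

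Among the PFKFB genes, only PFKFB3, the isoform with the highest ratio of kinase to phosphatase activity, was read high enough to follow. PFKFB3 had a value of 10.67 with empty vector and 9.46 with FOXK2. The difference of -1.21 is 2.31-fold lower, and it ranked 202 from the lowest of 11263 genes. Among the 1000 genes nearest to it in mean level, 4.6% had a difference of larger size. Of these 1000 genes, 95% lay between -1.26 and 1.01, so PFKFB3 was past 2-fold but inside the spread of its level. PFKFB1, PFKFB2 and PFKFB4 were at the low end of the array's range. PFKFB1, the liver and muscle isoform, had 4.23 with empty vector and 4.29 with FOXK2. PFKFB2, known from heart and kidney, had 5.04 and 5.00, and PFKFB4, first described in testis and induced by hypoxia in many tumours, had 4.79 and 4.84. The files do not show if these readings exceeded background, and their differences of 0.054, -0.036 and 0.047 carry no direction: each changed sign under at least 1 of the alternatives described below. PFKFB3 was therefore the 1 PFKFB gene above the limit in these cells, and it was the one that was lower.

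All 4 PDK genes lay above the level limit and all 4 differences were positive, from 0.12 to 2.43, with a median of 0.53. Of all genes above the limit, 43.3% had a positive difference. PDK3, an isoform with a narrow normal distribution that includes testis and kidney, had a value of 5.98 with empty vector and 8.42 with FOXK2. It was 5.40-fold higher and ranked 34 from the top of 11263 genes. Of the 1000 genes nearest to it in level, 0.1% differed by more in either direction, and 95% lay between -0.99 and 0.83. PDK3 started not far above the level limit, and how much of 5.98 was background is not known, so its fold is uncertain.

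PDK4, the isoform that fasting, fatty acids and glucocorticoids induce, had 5.52 with empty vector and 6.43 with FOXK2. The difference of 0.91 is 1.88-fold, just under the 2-fold limit, and it ranked 303 from the top. Of the 1000 genes of nearest level, 3.6% differed by more. PDK1, a target of hypoxia-inducible factor, had 7.34 and 7.46, a difference of 0.12. PDK2, the most widely expressed isoform, had 7.84 and 7.98, a difference of 0.14. Of the genes above the limit, 67.4% differed by more than PDK2 and 72.4% by more than PDK1 in size, so both sat in the bulk of the genes. The spread within the family was wide: the difference of PDK3 exceeded that of PDK1 by 2.31 and that of PDK4 by 1.52 on the log2 scale.

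The lactate dehydrogenase genes were read high on the array, and below its highest value of 19.93. Whether single bright probes were saturated was not tested. LDHA had 13.60 with empty vector and 14.56 with FOXK2. Its difference of 0.96 is 1.95-fold, and it ranked 260 from the top. LDHB had 14.51 with empty vector and 14.36 with FOXK2, a difference of -0.15. The change of LDHA thus exceeded that of LDHB by 1.11, so the ratio of the A to the B reading was 2.15-fold higher with FOXK2. At this height the array's genes spread more: 95% of the 1000 genes nearest to LDHA in level lay between -1.23 and 1.54, and 10.0% differed by more than LDHA. Processed copies bear the names of both genes in RefSeq, 6 for LDHA and 3 for LDHB, and whether any of their transcripts reach these probes was not tested.

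**Figure D2:**
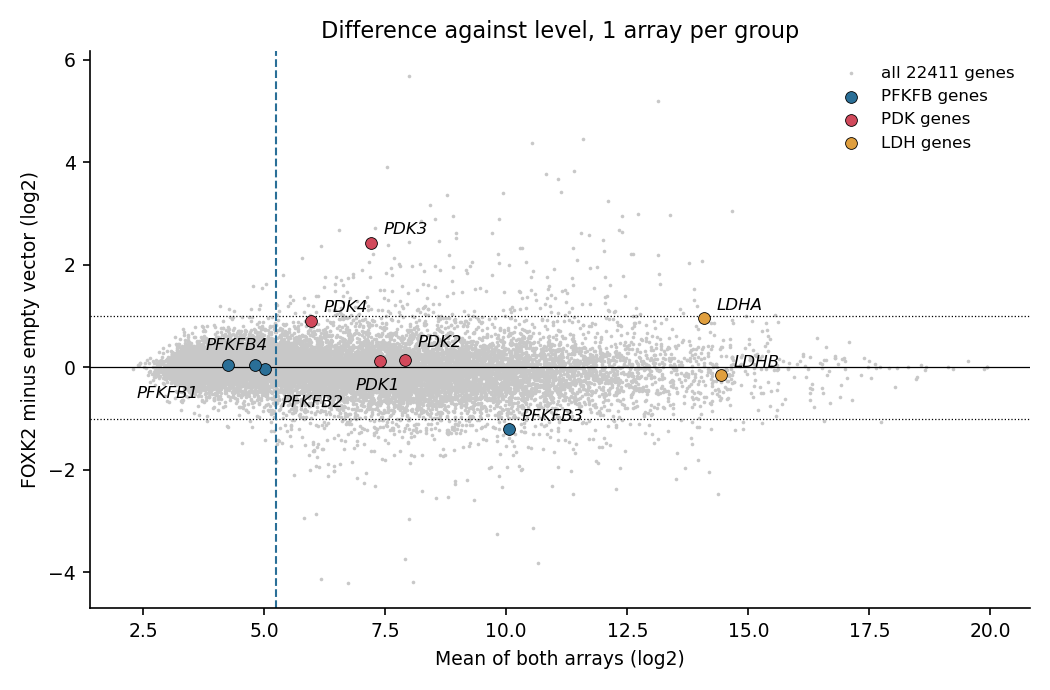
Difference between the arrays (log2, FOXK2 minus empty vector) against the mean of both arrays for all 22411 genes (grey), with the PFKFB, PDK and LDH genes in colour, dotted lines at 2-fold and a dashed line at the level limit. PDK3 stands clear of genes of its own level, LDHA and PDK4 lie just inside the upper 2-fold line, and LDHA lies where the cloud is wide.

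The scaling of the arrays decided 1 call and the sign of the smallest differences. PDK3 stood between 2.35 and 2.51 and PFKFB3 between -1.28 and -1.04 over the values as deposited and 5 alternatives (centring on the medians, subtraction of a loess curve over level, quantile normalization, only the brightest cluster of each gene, and subtraction of the running median of neighbouring genes). LDHA crossed 2-fold after subtraction of the loess curve (1.03) and after quantile normalization (1.02) and stayed under it in the others, down to 0.89. PDK4 ranged from 0.84 to 0.91 and was under 2-fold throughout. PDK1 and PDK2 stayed positive in all 6, between 0.051 and 0.21 and between 0.075 and 0.23. For every member the brightest cluster setting repeats the deposited value, since each has 1 cluster. LDHB stayed negative, from -0.22 to -0.0078.

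**Figure D3:**
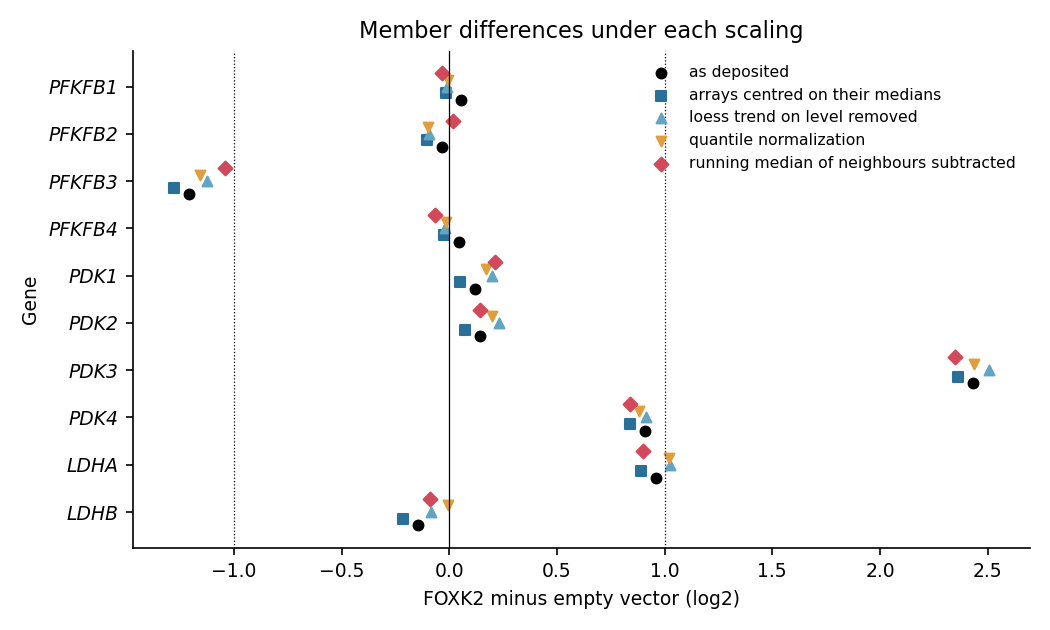
Differences (log2, FOXK2 minus empty vector) of the 10 genes as deposited and under 4 other scalings, 1 marker each, with dotted lines at 2-fold. The choice of the brightest transcript cluster is left out, since each of these genes has 1. PDK3 and PFKFB3 stay past 2-fold throughout, LDHA straddles the line, and PFKFB1, PFKFB2 and PFKFB4 fall on both sides of 0.

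Because the median difference was not the same on every chromosome, each member was also set against the genes beside it. PDK3 lies on chromosome X, and the 50 genes above the limit that flank it had a median of 0.085. The nearest of these on either side, ZFX and POLA1, differed by -0.090 and -0.11, and the 10 closest ranged from -0.94 to 0.48. Genes below the limit were left out of this order. Further out, 6 of the 50 were at least 2-fold higher and none at least 2-fold lower, against 2.13% and 3.05% of all genes above the limit, and REPS2 at 3.37 exceeded PDK3. PFKFB3 lies on chromosome 10, where the median over 439 genes was -0.24. Its 48 neighbours had a median of -0.17 with 32 of them negative, and the 10 closest ranged from -0.80 to 0.047. After subtraction of the running median PFKFB3 stood at -1.04, still past 2-fold, and 2 of its 48 neighbours differed by at least as much. LDHA on chromosome 11 and PDK4 on chromosome 7 had flanking medians of 0.059 and 0.069. They stood at 0.90 and 0.84 after subtraction.

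**Figure D4:**
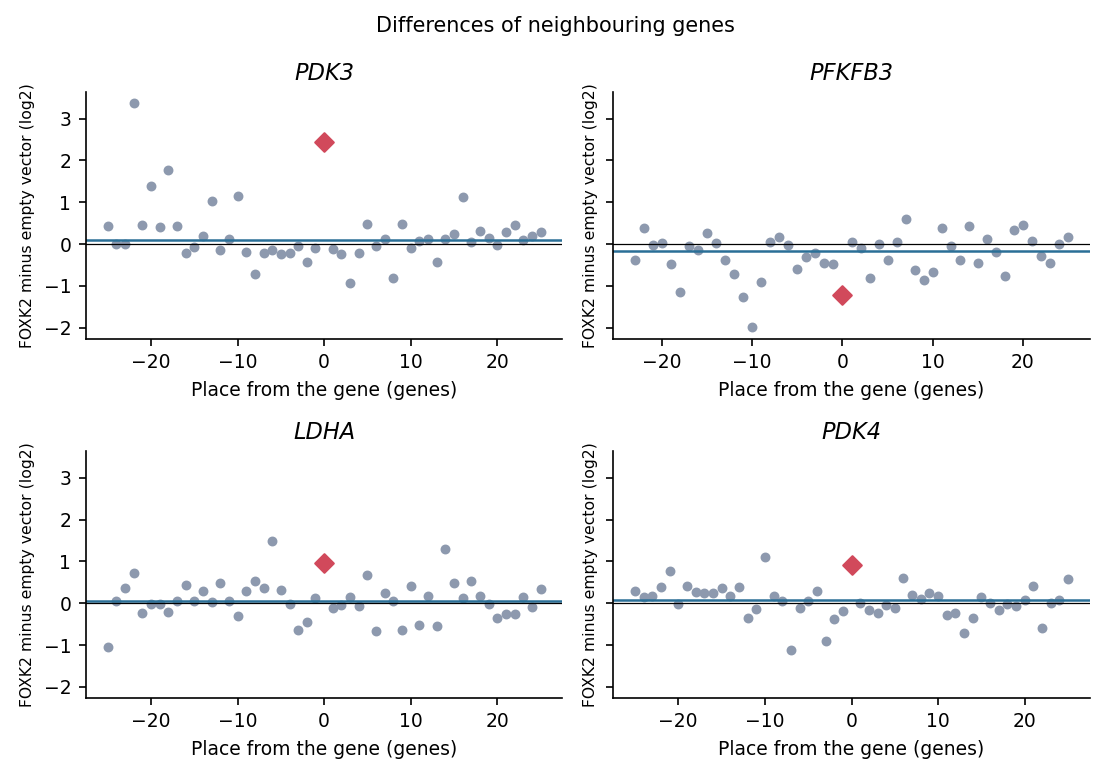
Differences (log2, FOXK2 minus empty vector) of up to 25 genes above the level limit on each side of PDK3, PFKFB3, LDHA and PDK4 (red diamonds), in the order of genes along the chromosome, with the median of the neighbours as a blue line. The 10 such genes closest to PDK3 lie between -0.94 and 0.48, 6 of its 50 neighbours further out are past 2-fold, and the neighbours of PFKFB3 have a median of -0.17.

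TIGAR, a phosphatase that breaks down the same regulatory sugar phosphate as the PFKFB enzymes, had a value of 7.64 with empty vector and 6.20 with FOXK2. It was 2.71-fold lower, with differences from -1.51 to -1.38 over the 6 settings. PFKFB3, which chiefly makes that molecule, was thus lower together with 1 enzyme that removes it. The gluconeogenic phosphatases FBP1 and FBP2 were below the level limit and held the same value in both arrays, 3.62 and 3.29.

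Of 20 measured enzymes of glycolysis itself, 16 were above the limit, 1 was at least 2-fold higher and none was at least 2-fold lower. Over all genes above the limit, 2.13% were at least 2-fold higher and 3.05% at least 2-fold lower. The median of the 20 enzymes was 0.11, with 14 positive differences, and 52.7% of all measured genes had a positive one. PKLR, the pyruvate kinase of liver, red cells and kidney, was the enzyme past 2-fold, with 6.29 and 7.46, a difference of 1.17. PGAM1, a phosphoglycerate mutase, had the largest size after it, -0.54, and stood at -0.13 once the running median of its neighbours was subtracted. HK2, the inducible hexokinase, had 5.36 and 5.73, and PKM, the main pyruvate kinase of tumours, had 16.25 and 16.21. The differences of PDK3 and LDHA were thus not matched in size by most of the enzymes upstream.

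On the mitochondrial side, none of the 8 measured genes of the pyruvate dehydrogenase complex and its phosphatases reached 2-fold in either direction. Their median was 0.031 and changed sign with the scaling, from -0.038 to 0.12 over the 6 settings. PDHX, which anchors dihydrolipoamide dehydrogenase in the complex, had 8.93 and 9.54, a difference of 0.60. PDHA1, the catalytic subunit that the PDK enzymes phosphorylate, had 12.32 and 12.76, a difference of 0.44. PDP1, a phosphatase that undoes the action of the PDK enzymes, had 6.98 and 6.54, a difference of -0.44. PDP1 was thus 1.36-fold lower, well under the 2-fold limit, and PDP2, also listed, had no reading under a single symbol.

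Of 7 listed carriers of pyruvate and lactate, 5 were measured, none of these reached 2-fold and their median was 0.096. SLC16A1 and SLC16A3, which encode lactate transporters, had no reading under a single symbol, so their differences are unknown. MPC1, a subunit of the mitochondrial pyruvate carrier, had 7.72 and 8.48, a difference of 0.76. BSG, the chaperone of the lactate transporters at the cell surface, had 13.70 and 13.30, a difference of -0.40 that stood at -0.021 after its neighbours' median was subtracted. Of the 14 citric acid cycle genes with pyruvate carboxylase, 1 was at least 2-fold higher and none at least 2-fold lower. Their median was 0.17, with 9 positive differences. Over all genes above the limit, 2.13% were at least 2-fold higher, 3.05% at least 2-fold lower and 43.3% positive. The gene of this list past 2-fold was PC, pyruvate carboxylase, which carries pyruvate into the cycle without the dehydrogenase complex. It had 5.42 and 6.81, a difference of 1.39, or 2.62-fold. OGDH, of the oxoglutarate dehydrogenase complex, had 10.07 and 10.59. Of the other dehydrogenase-like genes of lactate, 1 of 5 was above the limit, UEVLD, at 9.53 and 9.48.

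**Figure D5:**
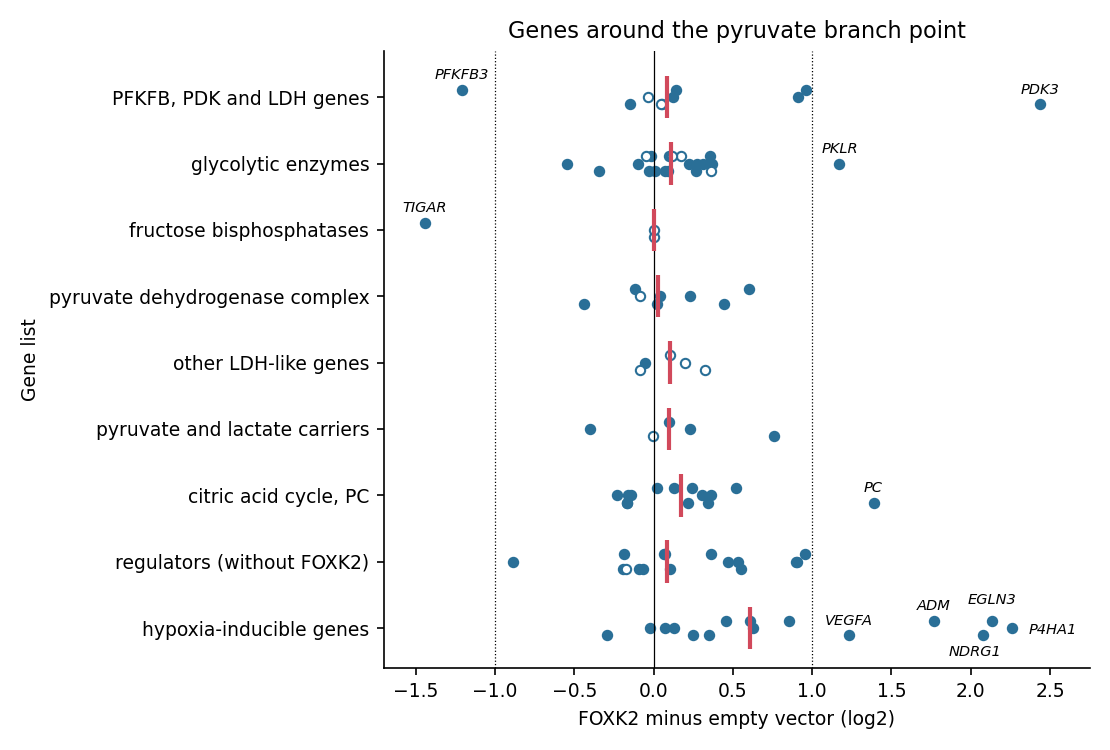
Differences (log2, FOXK2 minus empty vector) of the 10 genes and of 8 lists around them, 1 point per measured gene, filled where its mean is above the level limit and open where it is below, with the list's median as a red bar and dotted lines at 2-fold. FOXK2 itself is left out of the regulators. TIGAR, PKLR and PC are the 3 genes of the metabolic lists past 2-fold, and the hypoxia-inducible list is shifted to the right.

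Known regulators of the members were also read. Of 17 measured, 16 were above the limit, and FOXK2 itself was the 1 at least 2-fold higher, with none at least 2-fold lower. NR3C1, the glucocorticoid receptor, which induces PDK4, had 8.21 and 9.16, a difference of 0.96 that passed 2-fold in 3 of the 6 settings. EPAS1, the hypoxia-inducible factor that predominates in clear-cell carcinoma, had 6.82 and 7.72, and HIF1A, its relative, was below the level limit at 4.18 and 4.01. PPARA and PPARD, fatty acid receptors that act on PDK4, had differences of 0.55 and 0.53. In the same list PRKAA2 differed by 0.90 and FOXO1 by 0.47, while PPARGC1A, ESRRA and FOXO3 differed by only 0.066, 0.10 and 0.071. FOXK1 differed by -0.064. Of the 17 regulators, 11 had a positive difference, FOXK2 itself among them, and 6 a negative one. Of all measured genes, 52.7% had a positive difference. MYC, which induces LDHA, had 10.46 and 9.58, a difference of -0.88 that is under 2-fold. Whether any of these regulators acted on a member was not tested.

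Of 15 measured hypoxia-inducible genes outside metabolism, 5 were at least 2-fold higher, against 2.13% of all genes above the limit, and none was at least 2-fold lower. The median was 0.61, with 13 positive and 2 negative differences, and 43.3% of all genes above the limit had a positive one. As the list was chosen with earlier results of these data known, the count describes the list and is not a test. CA9, also listed, had no reading under a single symbol. P4HA1, a collagen prolyl hydroxylase, differed by 2.26, the oxygen sensor EGLN3 by 2.13 and NDRG1 by 2.08. ADM, which encodes adrenomedullin, differed by 1.77 and VEGFA, the vessel growth factor, by 1.23. The members known to respond to the same factors did not share one direction: LDHA and PDK3 differed by 0.96 and 2.43, PDK1 and PFKFB4 by 0.12 and 0.047, and PFKFB3 by -1.21.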

How the data were processed

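Expression was measured on 2 Affymetrix whole-transcript arrays, 1 with empty vector and 1 with FOXK2. The deposited values are the authors' log2 values for 67528 transcript clusters. Their range, 2.13 to 19.93, is the basis for taking them as log2. Per the submitters' processing notes, Affymetrix Expression Console was used, and no algorithm, version or build is given in the sources used here. Trizol-extracted RNA was biotin-labelled, per the labels' protocols. Array medians were 4.48 (empty vector) and 4.55 (FOXK2). Probe background was not used here, and the number of arrays limits the precision.

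Transcript clusters with 1 symbol (23781; 1543 had several and 42204 none) were named through the platform annotation, with symbols updated from RefSeq GRCh38.p14, and averaged per gene. The difference was taken with no further normalization. Where a gene had several clusters above the level limit on the main assembly (88 genes), their differences disagreed by a median of 0.22. Genes were called at 2-fold above the level limit. RefSeq served for gene order and for promoter sequences; PFKFB2 was not searched for motifs. Members, lists and most alternatives were chosen with earlier results of these data known. Named genes were the 10 members, FOXK2 and, in each list, genes past 2-fold and the 2 largest differences above the limit. Other genes were chosen after their values were seen (PAX8, CUBN, LRP2, CD68, PTPRC, FBP1, FBP2, HK2, PKM, PDP1, REPS2, EPAS1, HIF1A, PPARA, PPARD, PRKAA2, PPARGC1A, ESRRA, FOXO1, FOXO3, FOXK1, MYC, ZFX and POLA1). Some listed genes were named because they had no reading (SLC16A1, SLC16A3, PDP2 and CA9). Loess curves (span 0.3) came from statsmodels 0.14.6 and the rest from pandas 2.3.3 and numpy 2.4.6 under Python 3.11.15, and the calculation was tested on simulated data.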

Additional observations from a re-analysis of the deposited data

How the results depend on the processing

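No paired analysis was possible because each group has 1 array, and for the same reason no replicate could be left out. Of 52 further values of the counts and of the members' median, 43 stayed within 1.5 times the reported count or, for the median, within the 0.22 by which clusters of 1 gene disagree. Some of the 43 were fixed in advance, since members have 1 cluster each and the brightest cluster setting cannot move them. Within those bounds, the members with a positive difference went from 7 to 5 after centring, subtraction of the loess curve or quantile normalization, and all genes at least 2-fold lower ranged from 238 (running median subtracted) to 416 (centring). The number of members at least 2-fold higher went from 1 to 2 after subtraction of the loess curve and to 2 after quantile normalization, in both cases through LDHA (1.03 and 1.02). With the limit at 1.5-fold, 3 members were higher, and 686 of all genes were higher and 1197 lower. With the limit at 3-fold, 0 members were lower (PFKFB3 dropped out), and 98 of all genes were higher and 83 lower, beside 240 and 344 at 2-fold. Among members above the 60th percentile of level, 4 had a positive difference, since fewer members were counted. Signal over background is unknown, which limits PFKFB1, PFKFB2, PFKFB4 and the empty vector values of PDK3 and PDK4 most.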
